A study of Bos taurus with 4 samples.

Results

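The genes of tRNA charging and tRNA modification were followed in gamma delta T cells of cattle. These lymphocytes are abundant in the blood of young ruminants. The genes were chosen by symbol from the probe annotation of the array: the aminoacyl-tRNA synthetases, the AIMP scaffold proteins, and tRNA-modifying enzymes of the TRMT, NSUN, PUS, ELP, DTWD, THG1L, TRNT1 and ADAT families. The rule found 59 of the 9155 named genes, measured by 73 probe sets, and used no measured value. They comprise 16 cytosolic synthetases, 13 mitochondrial synthetases (symbols ending in 2), 2 scaffold proteins and 28 modification genes.

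Sorted cells spent 4 h in culture with APP, a water extract of apple polyphenols used at 42.2 µg/ml, or with PBS, the vehicle. Cells of the same 2 calves, 301 and 303, were used for both treatments, giving 2 APP arrays and 2 PBS arrays. All cells were taken from peripheral blood, sorted to a purity of over 97% and rested overnight; the labels give the calves' age as 1 to 6 months, while the design text calls them neonatal. Values are log2 ratios to the gene's own median over the 4 arrays, so that differences between arrays can be read, and the level of a gene, or of one gene against another, cannot.

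As background, each synthetase joins 1 amino acid to its tRNAs, and cytosolic and mitochondrial protein synthesis mostly use enzymes from separate genes. In mammals several cytosolic synthetases sit in a large complex held by the scaffold proteins AIMP1, AIMP2 and EEF1E1, and KARS1 and GARS1 each supply both compartments. After transcription, tRNAs are methylated, pseudouridylated and otherwise modified, which steadies their fold and tunes decoding. Activated T cells are known for a rise in protein synthesis. The roles given below are those known from human cells or yeast.

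A change is the APP value minus the PBS value within a calf, averaged over both calves. "Rose" and "fell" are used of genes with an adjusted p under 0.05 in limma with the calf as a block, fitted over all 9155 genes, of which 23% rose and 29.7% fell. With so few arrays the share of false calls in simulations with few changed genes was above that threshold, so adjusted p-values may be too small. Of the 59 genes 21 rose, 19 fell and 19 did not pass, and the median change was 0.04, against 0.01 for all genes. The share of falls was thus close to that of all genes. The change had the same sign in both calves for 55 of the 59 genes, against 84.7% of all genes. The hybridization controls bioB, bioC and bioD, bacterial transcripts added in fixed amount, were 0.87 higher on the APP arrays. The cre controls, by contrast, were 0.22 higher and the labelling controls dap, lys, phe, thr and trp 0.42 higher, so the controls gave unlike shifts. Scaling was made to bioB, bioC and bioD only, the largest of these shifts. It is called control scaling below and lowers every change by 0.87. Under it 3 of the 59 genes rose and 45 fell, against 3.1% and 90.3% of all genes. The order of genes and the differences between them are the same under that scaling. All changes are therefore relative to the bulk of transcripts. In a bulk sample, fewer cells of a type and less RNA per cell cannot be told apart.

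Cytosolic synthetase genes were mostly higher after APP, where 23% of all genes rose and 29.7% fell (3.1% and 90.3% under control scaling). Of the 16, 12 rose, 0 fell and 4 did not pass (limma; 0 also fell at an unadjusted p under 0.05 or without the block), although 2 rose and 8 fell under control scaling. The median change was 0.53 (0.47 in calf 301 and 0.63 in calf 303), and the changes ran from -0.22 to 1.42. Both APP arrays lay above both PBS arrays for 13 of the 16 genes and below them for 1, against 36.6% and 37.2% of all genes. For 4 of them (GARS1, CARS1, EPRS1 and YARS1) the change was at least 2-fold in both calves, which held for 3.5% of all genes.

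GARS1, the glycyl-tRNA synthetase, stood at 0.63 and 0.47 on the APP arrays of calves 301 and 303, against -0.72 and -1.03 on the PBS arrays. All APP values were above all PBS values, and the gene rose 2.68-fold (log2 change 1.42 ± 0.10, SD, n = 2 calves; adjusted p = 5.38e-05, limma). CARS1, the cysteinyl enzyme, stood at 0.92 and 0.28 on the APP arrays, against -0.39 and -1.01 on the PBS arrays. It rose 2.46-fold, by 1.31 in calf 301 and by 1.29 in calf 303 on the log2 scale (limma, adjusted p = 6.43e-05), and its 2 probe sets gave 1.25 and 1.35. Its change was 0.98 without the APP array of calf 301 and 0.99 without the PBS array of calf 303. Without the APP array of calf 303 it was 1.62, and without the PBS array of calf 301 it was 1.61. CARS1 is not among the genes, named below, that passed whichever array was left out. Calf 303 had the lower CARS1 value under both treatments, by 0.63 on average (adjusted p = 0.03 for the calf term, limma). It was the 1 gene of the 59 that differed between the calves, against 1.7% of all genes.

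EPRS1 encodes the bifunctional glutamyl-prolyl enzyme, and it stood at 0.40 and 0.63 on the APP arrays, against -0.63 and -0.62 on the PBS arrays. The PBS values of both calves nearly coincided and the APP values were clear of them, a 2.21-fold rise (1.14 ± 0.15; adjusted p = 0.000144, limma). YARS1, the tyrosyl enzyme, stood at 0.65 and 0.30 on the APP arrays, against -0.41 and -0.81 on the PBS arrays, a 2.12-fold rise. TARS1, the threonyl enzyme, stood at 0.38 and 0.37 on the APP arrays, against -0.52 and -0.88 on the PBS arrays, a 2.10-fold rise. The groups did not overlap for either gene. AARS1 (alanyl, 0.89 in calf 301 and 1.13 in calf 303), LARS1 (leucyl, 0.89 and 0.98) and SARS1 (seryl, 0.59 and 0.84) followed. The last 4 that rose were small: KARS1 (lysyl, 0.34), IARS1 (isoleucyl, 0.34), MARS1 (methionyl, 0.31) and NARS1 (asparaginyl, 0.30). These 4 and SARS1 turned to between -0.57 and -0.16 under control scaling. In the test over probe sets the MARS1 probe set at 0.50 rose and that at 0.11 did not pass, and the groups of MARS1 overlapped. The NARS1 probe set at 0.55 rose, and those at 0.10 and 0.23 did not pass.

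Among those that did not pass were RARS1, the arginyl enzyme (0.26, adjusted p = 0.0593, limma), HARS1, the histidyl enzyme (0.07, 95% interval -0.15 to 0.30) and QARS1, the glutaminyl enzyme. QARS1 stood at -0.11 and -0.11 on the APP arrays, against 0.08 and 0.14 on the PBS arrays, and was the 1 cytosolic synthetase whose APP values both lay below the PBS values (change -0.22, adjusted p = 0.0918, limma). WARS1, the tryptophanyl enzyme and an interferon-inducible gene in human cells, averaged 0.26 (adjusted p = 0.0513, limma) over 4 probe sets that disagreed. In the test over probe sets, where 16.3% of all probe sets rose and 23.6% fell, 3 of them rose (0.51, 0.81 and 0.81) and 1 fell (-1.07). Its mean therefore describes none of its probe sets.

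**Figure D1:**
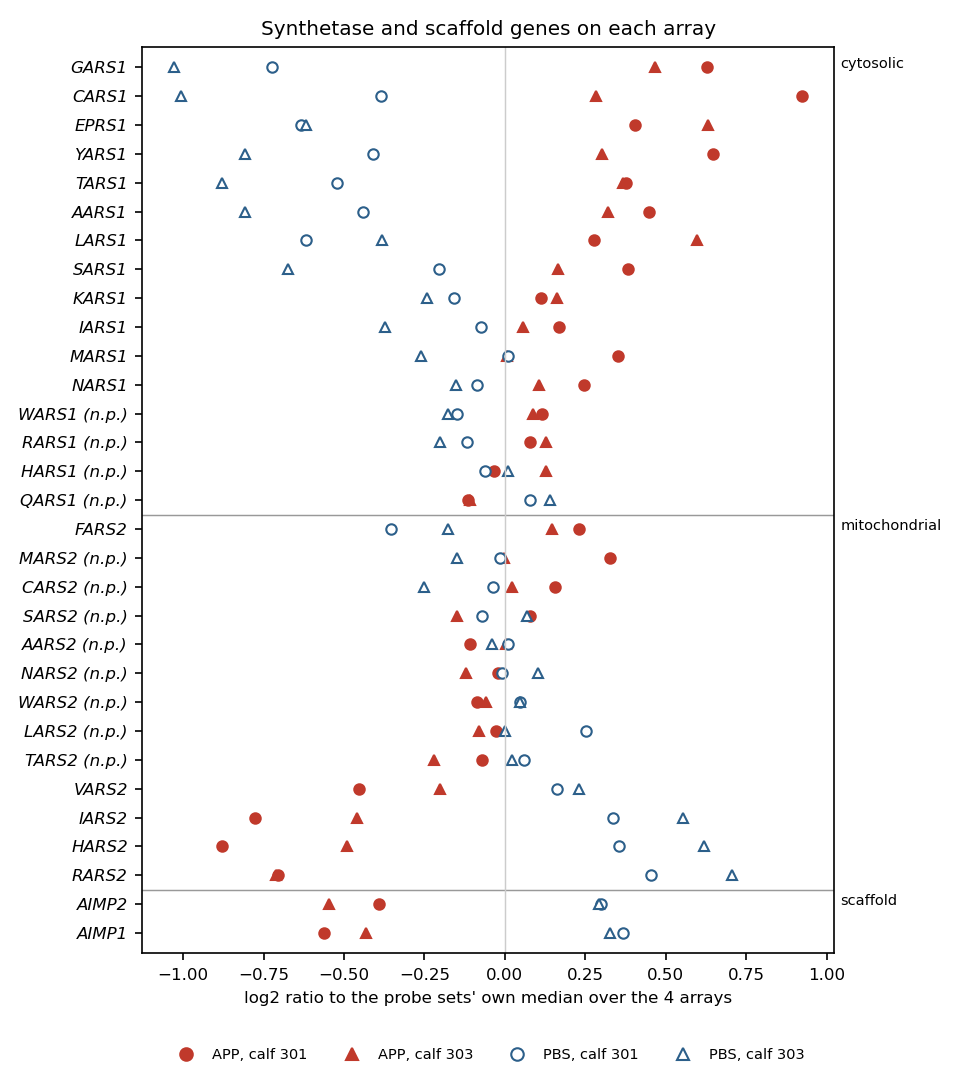
Each row is a gene and each point an array, with the log2 ratio to the gene's own median over the 4 arrays on the x axis; filled red is APP, open blue is PBS, circles are calf 301 and triangles calf 303, and n.p. marks genes that did not pass an adjusted p of 0.05. Red points lie right of blue ones for 13 of 16 cytosolic synthetases, against 36.6% of all genes. They lie left of them for 8 of 13 mitochondrial ones and both scaffold genes, against 37.2% of all genes. Control scaling would move every red point 0.79 (calf 301) or 0.95 (calf 303) to the left relative to the blue ones.

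Few mitochondrial synthetase genes rose. Of the 13, 4 fell, 1 rose and 8 did not pass, where 29.7% of all genes fell and 23% rose. The share of falls was thus close to that of all genes. The median change was -0.12 (-0.13 in calf 301 and -0.22 in calf 303). All 13 fell under control scaling, as did 90.3% of all genes. RARS2, the mitochondrial arginyl enzyme, stood at -0.71 and -0.71 on the APP arrays, against 0.46 and 0.71 on the PBS arrays. It fell 2.45-fold (-1.29 ± 0.18, SD, n = 2 calves; adjusted p = 0.000102, limma). HARS2, the histidyl enzyme, stood at -0.88 and -0.49 on the APP arrays, against 0.36 and 0.62 on the PBS arrays, a 2.26-fold fall (-1.17 ± 0.09; adjusted p = 0.000104, limma). In both genes the groups were far apart beside the spread within them.

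IARS2, the mitochondrial isoleucyl enzyme, stood at -0.78 and -0.46 on the APP arrays, against 0.34 and 0.55 on the PBS arrays, a 2.09-fold fall (adjusted p = 0.000146, limma). For RARS2, HARS2 and IARS2 the fall was at least 2-fold in both calves, which held for 6.29% of all genes. VARS2, the valyl enzyme, fell less (-0.61 in calf 301 and -0.43 in calf 303). FARS2, the phenylalanyl enzyme, was the 1 that rose. It stood at 0.23 and 0.15 on the APP arrays, against -0.35 and -0.18 on the PBS arrays, and rose 1.37-fold (adjusted p = 0.0108, limma), or changed by -0.42 under control scaling. The 8 others lay between -0.19 (TARS2) and 0.24 (MARS2). MARS2 (methionyl, 0.34 in calf 301 and 0.15 in calf 303) and CARS2 (cysteinyl, 0.19 and 0.27) also had both APP arrays above both PBS arrays. That held for 36.6% of all genes. TARS2 was read by a pair of probe sets that differed, with -0.53 in one, which fell, and 0.16 in the other, which did not pass.

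For 11 amino acids both the cytosolic and the mitochondrial enzyme were measured, and with probe sets averaged the cytosolic one had the higher change in all 11, in both calves. With the probe set of largest variance it was higher in 10, tryptophan turning (WARS1 -1.07 and WARS2 -0.12). In 9 pairs every cytosolic probe set lay above every mitochondrial one, the exceptions being tryptophan and methionine, where 1 MARS1 probe set (0.11) lay below MARS2. The difference between the partners had a median of 1.07 on the log2 scale (1.03 in calf 301 and 1.06 in calf 303), which scaling of whole arrays cannot alter. It was widest for arginine (RARS1 0.26 and RARS2 -1.29), isoleucine (IARS1 0.34 and IARS2 -1.06) and threonine (TARS1 1.07 and TARS2 -0.19). It was narrowest for methionine, where MARS1 changed by 0.31 and MARS2 by 0.24. The pairs reached their gap in different ways. For 7 amino acids (cysteine, threonine, alanine, leucine, serine, methionine and asparagine) the cytosolic enzyme rose and the mitochondrial one did not pass. For arginine and histidine the mitochondrial enzyme fell and the cytosolic one did not pass, for isoleucine both were called, in opposite directions, and for tryptophan neither passed. HARS1 and HARS2 are next to each other among the protein-coding genes of the bovine assembly ARS-UCD2.0, and their changes were 0.07 and -1.17. Whether the groups of cytosolic and mitochondrial genes differ was not tested over genes.

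**Figure D2:**
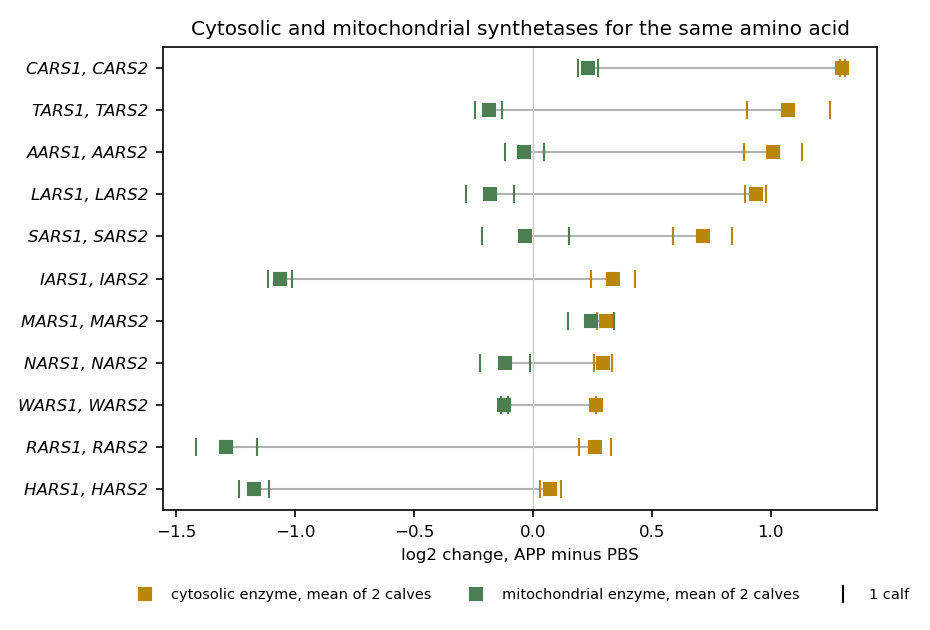
Each row is a pair of synthetases for the same amino acid, with the log2 change (APP minus PBS) on the x axis; squares are means over the 2 calves and ticks are single calves. The cytosolic square lies right of the mitochondrial one in all 11 rows, by 0.06 (methionine) to 1.55 (arginine), with probe sets averaged; the tryptophan row turns with the probe set of largest variance.

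Both scaffold genes of the AIMP family fell, while another scaffold gene rose. AIMP1, which also gives rise to a secreted cytokine, stood at -0.56 and -0.43 on the APP arrays, against 0.37 and 0.33 on the PBS arrays. It fell 1.80-fold (-0.85 ± 0.12, SD, n = 2 calves; adjusted p = 0.000473, limma). AIMP2 stood at -0.39 and -0.55 on the APP arrays, against 0.30 and 0.29 on the PBS arrays, a 1.70-fold fall (adjusted p = 0.000718, limma). Both APP arrays lay below both PBS arrays for either gene, which held for 37.2% of all genes. EEF1E1, the smallest scaffold protein, known also as AIMP3 and not covered by the symbol rule, stood at 0.50 and 0.57 on the APP arrays, against -0.83 and -0.92 on the PBS arrays, and rose 2.65-fold (1.41 ± 0.11). Of the 10 measured components of the complex 6 rose (EEF1E1, EPRS1, LARS1, KARS1, IARS1 and MARS1), 2 fell and 2 (RARS1 and QARS1) did not pass. Over all genes 23% rose and 29.7% fell (3.1% and 90.3% under control scaling). The median change of the 10 was 0.32, or -0.55 under control scaling. Of the 6 rises 3 (EEF1E1, EPRS1 and LARS1) passed whichever array was left out, and KARS1, IARS1 and MARS1 passed in no such fit.

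Synthetases fall into 2 structural classes that differ in the fold of the catalytic domain. Of 9 measured class I cytosolic enzymes 6 rose and 3 did not pass (median 0.34). Of 7 class II enzymes 6 rose and 1 did not pass (median 0.71). Among all genes 23% rose and 29.7% fell (3.1% and 90.3% under control scaling). Fits without 1 array, described below, called fewer of all genes. Without the APP array of calf 301 or the PBS array of calf 303, 3 of the 6 passed in each class, and without either of the other two arrays 4 did. Scaled to the hybridization controls the medians became -0.53 and -0.16. EPRS1, which carries a domain of each class, was counted in class I.

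The 28 modification genes moved both ways. Of these 8 rose, 13 fell and 7 did not pass, where 23% of all genes rose and 29.7% fell. The median change was -0.09. Under control scaling 1 rose and 22 fell, against 3.1% and 90.3% of all genes. The modification genes held both the largest rise and the largest fall of the 59 genes. PUS7, a pseudouridine synthase of tRNAs and mRNAs, stood at 0.57 and 0.87 on the APP arrays, against -1.18 and -1.04 on the PBS arrays. It rose 3.57-fold (1.83 ± 0.11, SD, n = 2 calves; adjusted p = 2.43e-05, limma), with both APP values far above both PBS values, and still by 0.96 under control scaling. Its relative PUS7L went the other way, with -0.44 and -0.37 on the APP arrays, against 0.28 and 0.54 on the PBS arrays, a 1.76-fold fall (adjusted p = 0.000573, limma). PUS1, which modifies cytosolic and mitochondrial tRNAs, changed by 0.24 (adjusted p = 0.0799, limma), and its groups overlapped.

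DTWD1, which in human cells adds an aminocarboxypropyl group to a uridine of tRNA, stood at -1.80 and -1.44 on the APP arrays, against 0.70 and 1.08 on the PBS arrays. It fell 5.69-fold (-2.51 ± 0.02, SD, n = 2 calves; adjusted p = 1.08e-05, limma), the fall ranked 11 of all 9155 genes. DTWD2, which makes the same modification at another site, stood at -0.10 and 0.06 on the APP arrays, against -0.22 and 0.16 on the PBS arrays. Its groups overlapped and its change was 0.00, with a 95% interval of -0.24 to 0.25 that leaves out a fall like that of DTWD1.

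Of 15 RNA methyltransferase genes of the TRMT and NSUN families 8 fell, 4 rose and 3 did not pass, where 29.7% of all genes fell and 23% rose. TRMT13, which methylates a ribose in the acceptor stem, fell most. It stood at -1.32 and -0.68 on the APP arrays, against 0.45 and 0.62 on the PBS arrays, a 2.90-fold fall (-1.54 ± 0.33; adjusted p = 0.000113, limma). TRMT1L, a relative of TRMT1, stood at -0.52 and -0.78 on the APP arrays, against 0.47 and 0.37 on the PBS arrays, a 2.09-fold fall (-1.07 ± 0.11; adjusted p = 0.000167, limma). TRMT1 itself, which dimethylates a guanosine, moved the other way. It stood at 0.60 and 0.33 on the APP arrays, against -0.49 and -0.51 on the PBS arrays, a 1.96-fold rise (0.97 ± 0.18; adjusted p = 0.000334, limma), and both its probe sets rose (0.88 and 1.06).

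The smaller falls were those of TRMT10C, a subunit of mitochondrial RNase P (-0.67), TRMT61B, which methylates mitochondrial tRNAs (-0.61), TRMT11, a guanosine methyltransferase (-0.51), TRMT12, of the wybutosine pathway (-0.39), TRMT10B (-0.34) and NSUN6, a cytosine methyltransferase (-0.28). In the test over probe sets the TRMT12 probe set at -0.56 fell and that at -0.22 did not pass. The other rises were NSUN4, TRMT61A and TRMT2A. NSUN4, which acts on mitochondrial ribosomal RNA rather than tRNA, stood at 0.70 and 0.27 on the APP arrays, against -0.48 and -0.35 on the PBS arrays (0.90 ± 0.39; adjusted p = 0.00182, limma). TRMT61A, the catalytic subunit of an adenosine methyltransferase, stood at 0.61 and 0.22 on the APP arrays, against -0.46 and -0.28 on the PBS arrays (0.78 ± 0.40; adjusted p = 0.00365, limma), or at a change of -0.09 under control scaling. NSUN4 and TRMT61A were the 2 genes of the 59 whose change differed by over 0.5 between the calves, being larger in calf 301 in both cases. TRMT6, the partner subunit of TRMT61A, changed by 0.11 with a 95% interval of -0.13 to 0.36. TRMT2A, a uridine methyltransferase, stood at 0.12 and 0.33 on the APP arrays, against -0.41 and -0.16 on the PBS arrays, a 1.42-fold rise, or a change of -0.36 under control scaling.

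**Figure D3:**
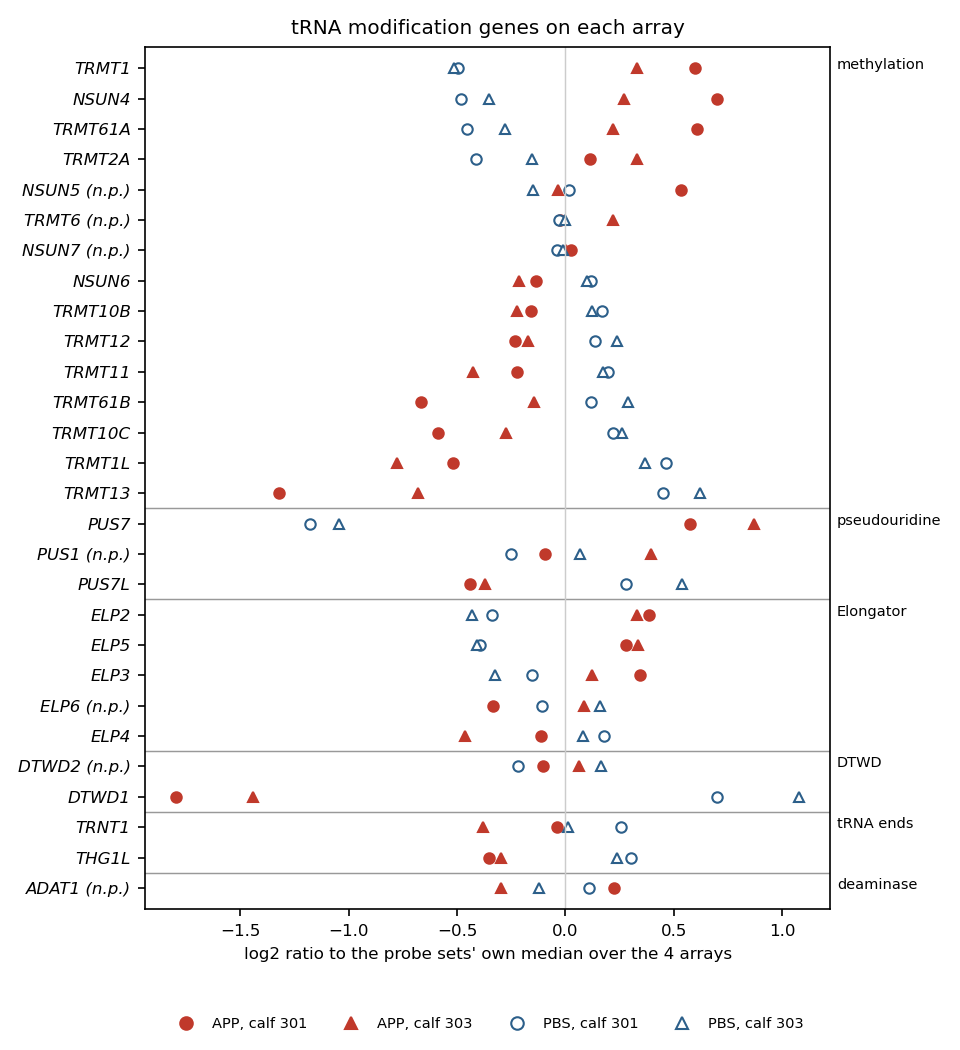
Each row is a gene of RNA modification and each point an array, drawn as for the synthetases, with the log2 ratio to the gene's own median over the 4 arrays on the x axis; n.p. marks genes that did not pass an adjusted p of 0.05. PUS7 and DTWD1 have the widest gaps between red (APP) and blue (PBS) points, in opposite directions, and members of the same family (TRMT1 and TRMT1L, PUS7 and PUS7L, DTWD1 and DTWD2) differ in their calls; control scaling would move every red point to the left by 0.79 (calf 301) or 0.95 (calf 303) relative to the blue ones.

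Elongator is a complex that starts the modification of wobble uridines. Its measured subunit genes numbered 5, of which 3 rose, 1 fell and 1 did not pass. Among all genes 23% rose and 29.7% fell (3.1% and 90.3% under control scaling). ELP2, a scaffold subunit, stood at 0.39 and 0.33 on the APP arrays, against -0.34 and -0.43 on the PBS arrays, a 1.67-fold rise (0.74 ± 0.02; adjusted p = 0.000674, limma), with 0.43 and 1.06 for its probe sets, both of which rose. ELP3, the catalytic subunit, rose 1.39-fold (0.50 in calf 301 and 0.45 in calf 303). ELP4, ELP5 and ELP6 form a subcomplex, and they parted. ELP5 rose 1.63-fold (0.71 ± 0.05). ELP4 stood at -0.11 and -0.46 on the APP arrays, against 0.18 and 0.08 on the PBS arrays, and fell 1.34-fold (adjusted p = 0.0148, limma). ELP6 changed by -0.15 (95% interval -0.38 to 0.09). The 3 risers stood between -0.40 and -0.13 under control scaling. Both enzymes of the tRNA ends fell, THG1L, which adds a guanosine to histidine tRNA, 1.51-fold (-0.66 in calf 301 and -0.53 in calf 303), and TRNT1, which adds the CCA tail, 1.27-fold (-0.29 and -0.39). ADAT1, which deaminates an adenosine of alanine tRNA, moved apart in the calves, being 0.11 in the first calf, 301, against -0.18 in calf 303, and did not pass (adjusted p = 0.834, limma).

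**Figure D4:**
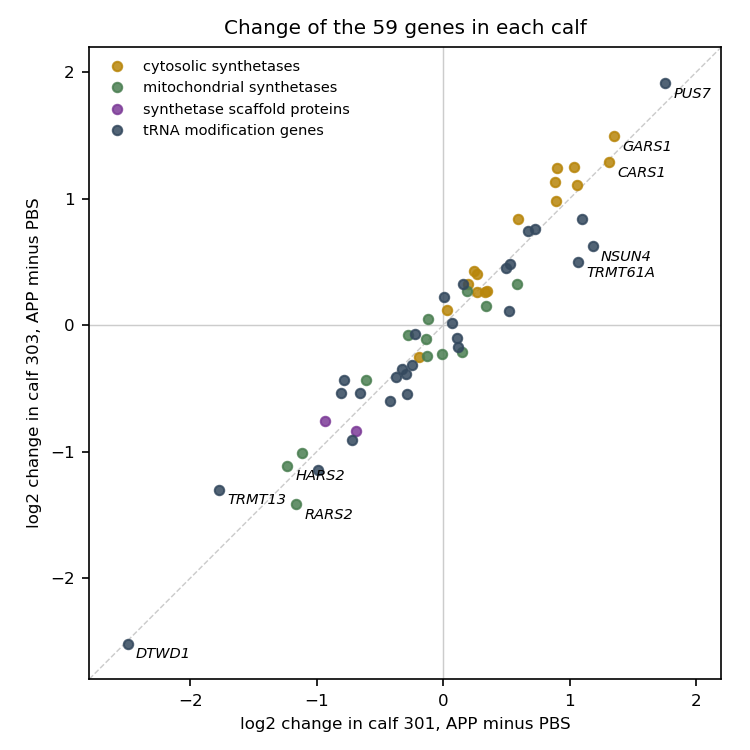
Each point is 1 of the 59 genes, with its log2 change (APP minus PBS) in calf 301 on the x axis and in calf 303 on the y axis, coloured by group; the dashed line marks equal changes. The points follow the line from DTWD1 at the lower left to PUS7 at the upper right, and 55 of 59 have the same sign in both calves; control scaling would lower all values by 0.79 (calf 301) and 0.95 (calf 303).

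Leaving out single arrays changed many calls. How many of all called genes passed in every such fit is not given. That number for the 59 genes therefore has no share of all genes beside it. Fits that left out 1 array had no block and 1 array in a treatment, which was assumed to vary like the other treatment's arrays, and they called fewer genes of every kind (from 2050 to 3304, against 4821): of all genes 12.2% rose and 18.8% fell when the APP array of calf 301 was left out. Leaving out APP 303 gave 14.1% and 22%, PBS 301 gave 8.67% and 16.6%, and PBS 303 gave 8.14% and 14.3%. Among the 59 genes 13, 17, 13 and 12 then rose and 13, 13, 9 and 10 fell, in the same order. Of the 40 called genes 20 passed in the same direction in each of the 4 such fits, namely GARS1, EPRS1, YARS1, TARS1, AARS1 and LARS1, RARS2, HARS2 and IARS2, AIMP1 and AIMP2, TRMT1, NSUN4, TRMT1L and TRMT13, PUS7 and PUS7L, ELP2 and ELP5, and DTWD1. The cytosolic synthetases that rose numbered 6 without the APP array of calf 301 or the PBS array of calf 303 and 8 without either of the other two. The mitochondrial ones that fell numbered 3 or 4 in each of the 4 fits, and FARS2 passed only without the APP array of calf 303. The modification genes that fell numbered 8 without APP 301, 7 without APP 303, 4 without PBS 301 and 5 without PBS 303, and those that rose numbered 7, 8, 5 and 6. With all 4 arrays but no block for the calf, where 15.3% of all genes rose and 23.6% fell, 33 of the 40 passed, all but MARS1, IARS1, NARS1, ELP4, TRMT61B, NSUN6 and TRNT1. All 40 had the same sign in every other fit except for 11 rises that point down under control scaling. Those other fits called 22.3% of all genes as risen and 29% as fallen with median centring, 23.5% and 26.3% with quantile normalization, 23.2% and 30.5% with the probe set of largest variance, and 23.2% and 29.7% with a robust prior.

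Further genes of tRNA biology were read from lists drawn up by function, with earlier results of these data known. Of 35 measured further modification genes 12 rose and 8 fell (3 and 27 under control scaling), with a median of 0.00. Of all genes 23% rose and 29.7% fell (3.1% and 90.3% under control scaling). YRDC, which makes the threonylcarbamoyl group placed on tRNAs that read codons beginning with A, stood at 0.71 and 0.71 on the APP arrays, against -1.46 and -1.33 on the PBS arrays, a 4.31-fold rise (2.11 ± 0.09, SD, n = 2 calves). METTL1, a guanosine methyltransferase of tRNA, rose 2.91-fold (1.54 ± 0.28) and BUD23, a methyltransferase of ribosomal RNA, 2.41-fold (1.27 ± 0.02). THUMPD3 (-1.18), TPRKB (-0.91) and TRDMT1 (-0.80) fell most, and TPRKB belongs to the KEOPS complex, which acts in the same pathway as YRDC. Without 1 array the rises numbered 7 (APP 301), 10 (APP 303), 7 (PBS 301) or 6 (PBS 303) and the falls 5, 7, 5 or 4.

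Of 20 genes of tRNA processing, splicing and ligation 7 rose and 6 fell (none and 17 under control scaling). Of all genes 23% rose and 29.7% fell (3.1% and 90.3% under control scaling), so the share of falls in this list was close to that of all genes. The RNase P subunits RPP38 (0.96) and POP5 (0.81) and the tRNA ligase RTCB (0.90) rose most, while TSEN15, a subunit of the splicing endonuclease (-1.63), ZBTB8OS, which activates RTCB (-1.25), and ELAC1 (-1.05) fell most. Without 1 array the rises numbered 4 (APP 301), 5 (APP 303), 3 (PBS 301) or 3 (PBS 303) and the falls 3, 5, 3 or 3. Of 13 genes of tRNA transcription, which hold subunits of RNA polymerase III, its initiation factors and its repressor MAF1, 3 rose and 6 fell (none and 11 under control scaling). POLR3B (0.83), POLR3A (0.61) and POLR3D (0.49) rose, POLR3A and POLR3B being the catalytic core, and POLR3GL (-0.98), POLR3C (-0.48) and GTF3C2, of an initiation factor (-0.43), fell most. MAF1 (-0.37) was among the 6 that fell, and is named here after its value was seen. Without 1 array the rises numbered 2 (APP 301), 1 (APP 303), 1 (PBS 301) or 0 (PBS 303) and the falls 2, 3, 1 or 1. Of 14 genes listed under tRNA export, proofreading and delivery 6 rose and 2 fell (1 and 11 under control scaling). EEF1E1, PTRH2 (1.10) and YARS1 were up most, of which EEF1E1 and YARS1 are also counted above. DTD1 (-0.32) and PRXL2A (-0.81) were down. PRXL2A is a peroxiredoxin-like protein without a known role in these steps, so DTD1 alone is a fall of a gene with such a role. Without 1 array those rises numbered 4 (APP 301), 5 (APP 303), 3 (PBS 301) or 3 (PBS 303) and the falls 1, 2, 1 or 1.

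Many cytosolic synthetase genes are known in human and mouse cells as targets of ATF4, the transcription factor of the amino acid response. The other genes of that response were set beside them, in a list also chosen with earlier results of these data known. Of 23 measured, 15 rose and 1 fell, against 23% and 29.7% of all genes. Under control scaling 10 rose and 10 fell, against 3.1% and 90.3% of all genes. The median change of the 23 was 1.02. The largest rises were those of the transcription factor ATF3 (log2 change 3.71), the phosphatase subunit PPP1R15A (log2 change 2.63) and SLC3A2, the heavy chain of amino acid transporters (2.47). SLC38A2, a transporter of small neutral amino acids, was the 1 gene that fell (-0.33), and of the 4 fits without 1 array it passed in the 1 without APP 301. The ATF4 transcript changed by 0.07, and the regulators DDIT3 and TRIB3 by 0.03 and 0.25, none of which passed; these 3 were named after their values were seen.

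**Figure D5:**
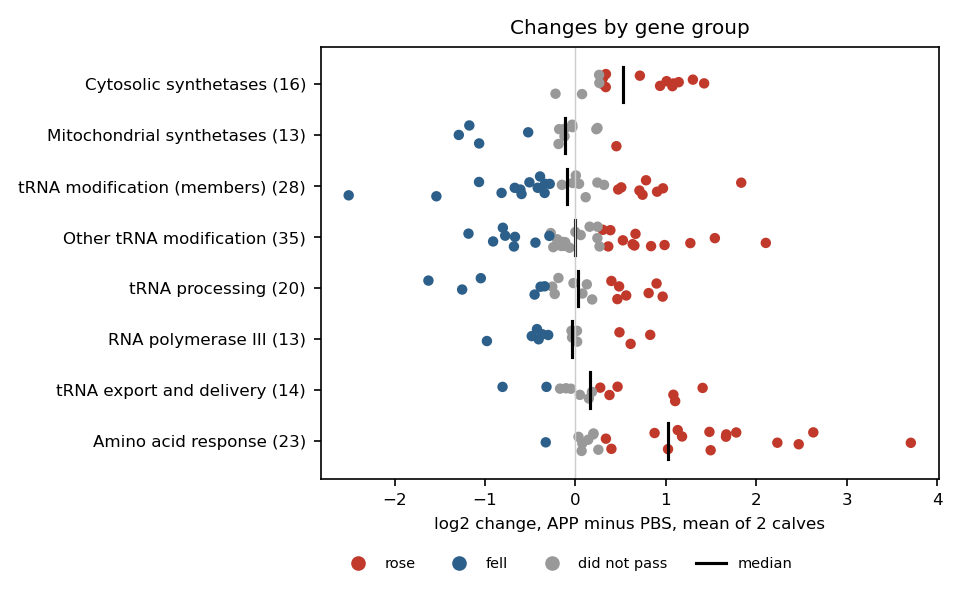
Each point is a gene, with its log2 change (APP minus PBS, mean of 2 calves) on the x axis, grouped by function with the number of measured genes in brackets; red rose, blue fell, grey did not pass, and black bars are medians. The medians are 0.53 for cytosolic synthetases, -0.12 for mitochondrial synthetases, -0.09 for the modification genes and 1.02 for the amino acid response; each is 0.87 lower under control scaling, and the first is then below 0.

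Markers of gamma delta T cells and of other cells that a sort could hold were read on the same arrays. The lists do not part the T cells sharply: CD3D, CD3E, CD3G, CD247 and CD5 of the gamma delta T cell list are carried by other T cells too. Over all genes 23% rose and 29.7% fell. Of 9 monocyte or macrophage genes 3 rose and 6 did not pass. CD68 rose most, by 1.90 in calf 301 and 2.71 in calf 303, while the 6 lay between -0.12 (ITGAM) and 0.25 (S100A9). Of 5 B cell genes 4 fell, with IGHM at -2.64 and -1.99, and BLNK (0.26) did not pass. Of 7 gamma delta T cell genes 4 fell, namely CD163L1 (-1.08), WC1.3 (-0.86), CD247 (-0.53) and CD3G (-0.47). In that list 1 rose, CD5 (0.62), and CD3D (-0.13) and CD3E (-0.08) did not pass. Of 5 alpha beta T cell genes 1 rose and 1 fell, and of 5 natural killer cell genes 1 (NKG7) rose. Of 6 platelet or red cell genes 0 passed (limma, 0 also at an unadjusted p under 0.05 or without the block). Without the block no alpha beta T cell or natural killer cell gene passed. The alpha beta T cell calls were CD8A (1.08) and CD8B (-0.64), whose groups overlapped and which were higher in calf 303 than in calf 301 by 1.59 and 2.30 (adjusted p = 0.00673 and 0.000499 for the calf term, limma). Of the monocyte rises CD68 alone passed without APP 301, without PBS 301 or without PBS 303, of the 4 B cell falls 2 passed without APP 301, and of the 4 gamma delta T cell falls 2 passed without either PBS array. CD8B and NKG7 passed in none of the fits without 1 array, CD8A in the 1 without PBS 303, and CD5, the gamma delta T cell gene that rose, in all but the 1 without PBS 301. As levels are lost on this scale, it could not be checked which of these markers were at background, and their part in the changes above was not tested. The difference of the 5′ from the 3′ actin control probe set, a sign of RNA integrity, changed with APP by 0.33 in calf 301 and -0.03 in calf 303, so that it did not move with the treatment in the same way in both calves.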

How the data were processed

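RNA of sorted gamma delta T cells (15 µg, labelled with biotin) was hybridised to 4 Affymetrix bovine arrays, per the labels' protocols. Per the submitters' processing notes, the authors used RMA to summarise probes; no version or option is named. The deposited values are linear ratios, taken within each probe set to its median of 4 arrays, a unit found from the values: the mean of the middle values was 0.982 to 1.001 for every probe set. The step from RMA to ratios is not given in the sources used here. Precision is limited by the number of arrays, 2 per treatment.

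Analysis used log2 of the ratios. Of 24128 probe sets, 112 controls were left out, and the platform annotation gave 1 gene symbol for 13292, several for 86 and none for 10638 of the others. Symbols were updated by Entrez identifier through a RefSeq table of ARS-UCD2.0 (13263 found), used for names and neighbours only. Probe sets of a gene were averaged, 48 of the 59 genes having 1 and 11 having several. Treatment was tested with limma 3.58.1 in R 4.3.3 (lmFit, eBayes, two-sided, Benjamini-Hochberg, threshold 0.05), with the calf as a block, since both treatments list the same animals by number. As a check of this pairing, the calf 303 minus calf 301 difference under APP was set against that under PBS, and Pearson's r over genes, which are not independent replicates, was 0.509. The fit had 1 residual and 5.86 prior degrees of freedom, and standard errors of the 59 genes were 0.095 to 0.143. The fit was tested on simulated data: known changes were recovered, but with few changed genes the share of false calls exceeded the threshold, so the calls here may hold more false ones than it states. The limit this test had to meet was widened after that was seen. With 2 arrays against 2, an exact permutation test cannot go below p = 0.33, and none was made. Nothing says that replicate arrays stand for more than these 2 animals.

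The genes and lists were chosen with earlier results of these data known. Array values are given for the 6 largest rises and falls, the largest of each role and members that went against their role; other lists are given by their 3 largest rises and falls. The alternatives were no block, median centring, quantile normalization, scaling to 14 probe sets of bioB, bioC and bioD, the probe set of largest variance per gene, a robust eBayes prior, leaving out each array, and updated symbols for the gene choice. A filter on dim probe sets was not possible, as levels are lost. Sequences were not used here.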

Additional observations from a re-analysis of the deposited data

Results flagged for a closer look

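The hybridization controls, which were left out of the genes tested above and used there only for control scaling, differed between the treatments. The median of the 14 probe sets for bioB, bioC and bioD was 0.28 and 0.56 on the log2 scale on the APP arrays of calves 301 and 303, against -0.51 and -0.39 on the PBS arrays, so that APP minus PBS was 0.79 in calf 301 and 0.95 in calf 303 and averaged 0.87. The controls for cre differed by 0.22 on average, and the transcripts dap, lys, phe, thr and trp, which are controls for labelling, by 0.42. Its part in the changes of the 59 genes was not tested.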

How the results depend on the processing

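Scaling to the hybridization controls changed the most. Genes that rose numbered 3 of the 59 (2 cytosolic synthetases, 0 mitochondrial synthetases, 1 modification gene) and those that fell 45 (8, 13 and 22). Rises that turned were SARS1 (-0.16), KARS1 (-0.53), IARS1 (-0.53), MARS1 (-0.57), NARS1 (-0.57), FARS2 (-0.42), TRMT61A (-0.089), TRMT2A (-0.36), ELP2 (-0.13), ELP5 (-0.16) and ELP3 (-0.40). All genes together shifted by -0.87, and 3.32% of calls were rises, against 43.6% as deposited. In the other lists rises and falls then numbered 3 and 27 (further modification), 0 and 17 (processing), 0 and 11 (RNA polymerase III), 1 and 11 (export and delivery) and, for the falls of the amino acid response, 10.

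Leaving out 1 array gave 12 to 17 rises and 9 to 13 falls among the 59. Rises ranged from 6 to 8 (cytosolic), 0 to 1 (mitochondrial) and 5 to 8 (modification), and falls from 0 to 0, 3 to 4 and 4 to 8. The other lists ranged over 6 to 10 rises and 4 to 7 falls (further modification), 3 to 5 and 3 to 5 (processing), 0 to 2 and 1 to 3 (RNA polymerase III), 3 to 5 and 1 to 2 (export and delivery), and 11 to 13 and 0 to 1 (amino acid response).

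Without the replicate block 18 of the 59 rose and 15 fell, 1 gene of the export and delivery list (PRXL2A) fell and 0 of the amino acid response. Under quantile normalization those last counts were 1 and 0. With the probe set of largest variance 1 cytosolic synthetase fell (WARS1) and 0 amino acid response genes. Median centring and a robust prior changed no count by over 1.5 times, and updated symbols chose the same number of genes, 59. Where a call was lost, the cause was not tested, beside the smaller number of arrays in the fits that leave one out. Signal over background is unknown on this scale, so a gene near background could not be told from one that did not change.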
